A study of Mus musculus with 2 samples.

Results

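The 40 genes described here are core genes of the G2 phase and of mitosis, taken as a fixed list by their known function. The list was chosen with earlier results of these data known. All 40 were found among the 35275 gene identifiers of the count table. RNA came from mesenchymal stem/progenitor cells (MSPC), the stromal precursors of bone marrow, sorted directly from C57BL/6 mice as CD45-, Ter-119- and CD31-, and CD140+ and Sca-1+. The control library came from Ptpn11+/+/Nestin-Cre+ mice and the mutant library from Ptpn11E76K/+/Nestin-Cre+ mice, with poly(A) enrichment in both. Both groups thus carried Nestin-Cre, a Cre recombinase driven by Nestin regulatory sequences, which are active in part of the marrow stroma and also in neural progenitors. Ptpn11 encodes SHP2, a phosphatase that acts upstream of RAS and ERK, and the E76K substitution makes it more active. The labels used here give no age, sex or number of mice. The question was how transcription in MSPC differed between the genotypes.

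A dividing cell enters mitosis when the kinase CDK1, bound to cyclin A or cyclin B, is released from inhibitory phosphorylation. Aurora and Polo-like kinases then drive centrosome separation, spindle assembly and chromosome attachment, while the spindle assembly checkpoint holds back the anaphase-promoting complex (APC/C) until the chromosomes are attached. The APC/C with its activator CDC20 destroys securin and cyclin B, sister chromatids separate, and the central spindle directs cytokinesis. Most of these genes are transcribed in a wave from late S phase to mitosis. That wave is repressed in resting cells by the DREAM complex and driven in cycling cells by B-MYB (Mybl2), the MuvB core and FOXM1.

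There was 1 library per genotype, so no difference between genotypes could be tested. Reads counted on genes came to 22328659 in the Ptpn11+/+ library and 18010963 in the Ptpn11E76K/+ library. Levels are given as CPM, counts per 1000000 of the library total after TMM scaling (the trimmed mean of M values), and ratios are mutant over control. The interval after each ratio is the 95% exact Clopper-Pearson interval of how the counts split between the libraries. It covers counting error only and compares these 2 libraries, not the genotypes. A gene was called higher or lower when the whole interval lay beyond 2-fold, with 1.5-fold as a second threshold, and the 13142 genes that reached 20 counts summed over the pair of libraries are called measured. In such sorted samples, more dividing cells and more transcript per dividing cell cannot be told apart.

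Defining MSPC markers were present in both libraries: Pdgfra at 2073 and 1792 counts, Pdgfrb at 6075 and 3721, and Ly6a, which encodes Sca-1, at 2177 and 612. Lepr was close to 0, with 7 and 4 counts. Of the 9 measured genes among 10 MSPC markers, 3 were higher beyond 2-fold, namely Cd44 (ratio 3.39), Nes (2.76) and Thy1 (2.57). Another 3 were lower, namely Cxcl12 (0.295), Prrx1 (0.364) and Ly6a (0.374). Over all measured genes, 6.98% were higher and 8.29% lower beyond 2-fold. Ptpn11 had 5958 and 5039 counts, and a gene count does not read the substituted base. The libraries also differed in some markers of other cells. The 12 myeloid markers summed to 14.6 CPM in control cells, with 6 of them at 0, and to 60.7 CPM in mutant cells, with none at 0, and 8 of the 11 measured ones were higher beyond 2-fold. The 4 general blood markers summed to 0.389 and 9.03 CPM, with Ptprc (CD45) at 1 and 12 counts. T-cell markers were at 0 in both libraries, and a count of 0 leaves room for 0.130 CPM (control) or 0.173 CPM (mutant). B-cell markers summed to 0.259 CPM in control and 0.230 CPM in mutant cells, and endothelial markers to 0.865 and 1.61 CPM. Erythroid markers summed to 39.3 and 115.7 CPM, nearly all from Tfrc, the transferrin receptor, which other dividing cells also express and which rose from 892 to 2007 counts, while Hba-a1 was at 0 in both. Whether other cells or the shift among MSPC markers contributed to the results on G2/M genes was not tested. The G2/M genes summed to 4472 and 6388 CPM, and sums of unlike gene sets do not measure shares of cells.

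All 40 G2/M genes were measured, and with TMM scaling 37 had a ratio whose interval lay wholly above 1. The same held for 5201 of the 13142 measured genes. It held for 3858 of the 7968 genes with at least 696 counts, the lowest count of any member. Kif4 and Pttg1 lay wholly below 1 and Mki67 held it, and with the 50 most abundant genes left out of the totals Nusap1 also came to just under 1. Birc5, Mybl2 and Ube2c rose beyond 2-fold, and no member fell beyond 2-fold. The members that rose beyond 1.5-fold but not beyond 2-fold were Aurka, Cdc20, Espl1, Cdk1, Cks2, Bub3, Ccnb1, Cenpa, Plk1 and Tpx2. The median ratio was 1.47-fold (log2 0.56, middle 50% of members 0.34 to 0.76). The members took 0.463% of control counts (0.460 to 0.466, exact binomial) and 0.617% of mutant counts (0.613 to 0.620), and their scaled sum rose 1.43-fold (1.42 to 1.44).

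Read against the background, 3 of 40 is close to the share of all genes: 6.98% of the 13142 measured genes were called higher beyond 2-fold and 8.29% lower. The 13 of 40 higher beyond 1.5-fold, and 0 of 40 lower, stand beside 15.7% higher and 15.6% lower over all measured genes. Every member had at least 696 counts over both libraries, which makes small differences easier to call. Among the 7968 genes with at least that many counts, 6.36% were called higher and 6.21% lower beyond 2-fold, and 17.4% higher and 13.1% lower beyond 1.5-fold. The median log2 ratio of those genes other than the members was 0.09, and that of all measured genes was 0.01. The G2/M genes differed from the background more in their common direction than in the size of single ratios. A ratio above 1 was found for 95% of them, against 50.1% of all measured genes and 55.9% of those with at least 696 counts. The calls beyond 2-fold depended on the scaling, since 0 members were called with total counts in place of TMM-scaled totals. A scaling moves every log2 ratio by the same amount, so it leaves the gap of 0.55 between the median of the members and that of all measured genes as it is.

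**Figure D1:**
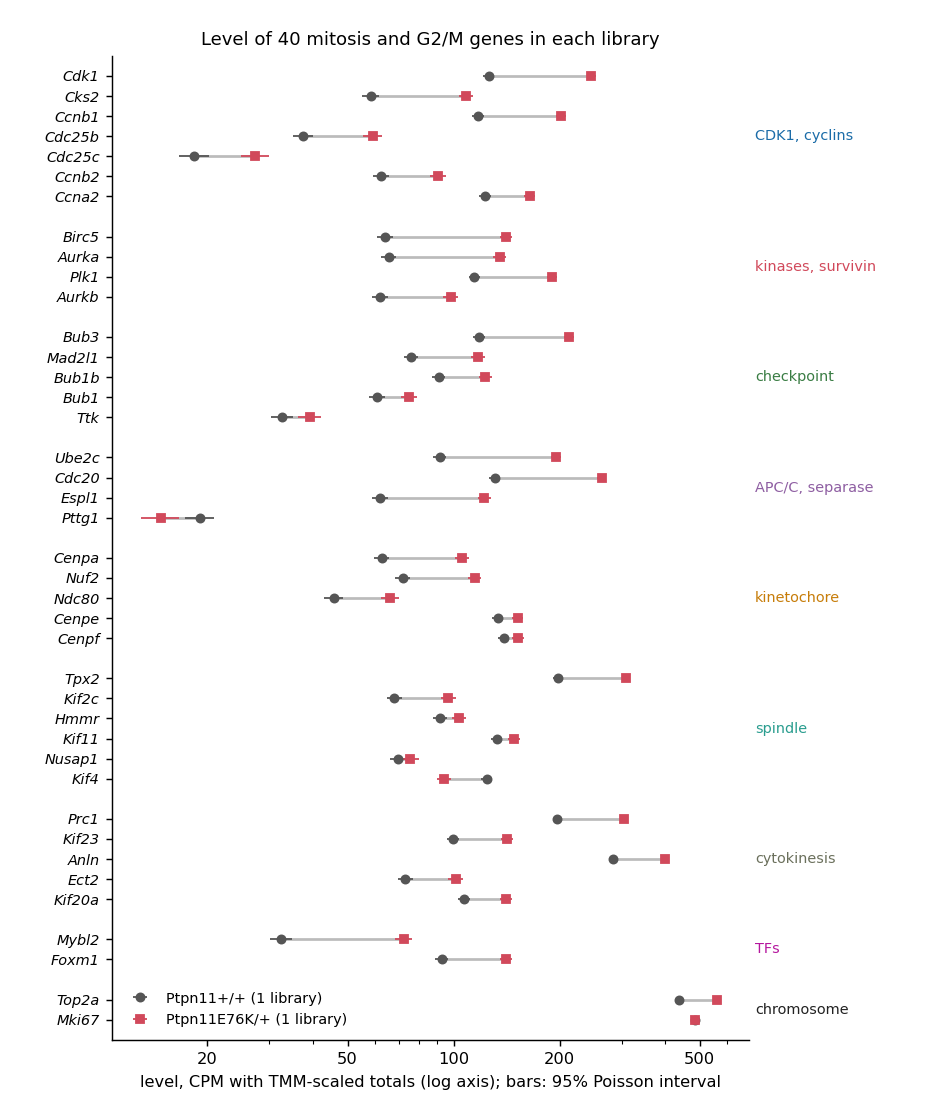
Level of each member in the control library (grey circles) and the mutant library (red squares), in CPM on a log axis, with 95% Poisson intervals; genes are grouped by role. The red square lies to the right of the grey circle for 37 members, coincides with it for Mki67 and lies to the left for Pttg1 and Kif4.

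**Figure D2:**
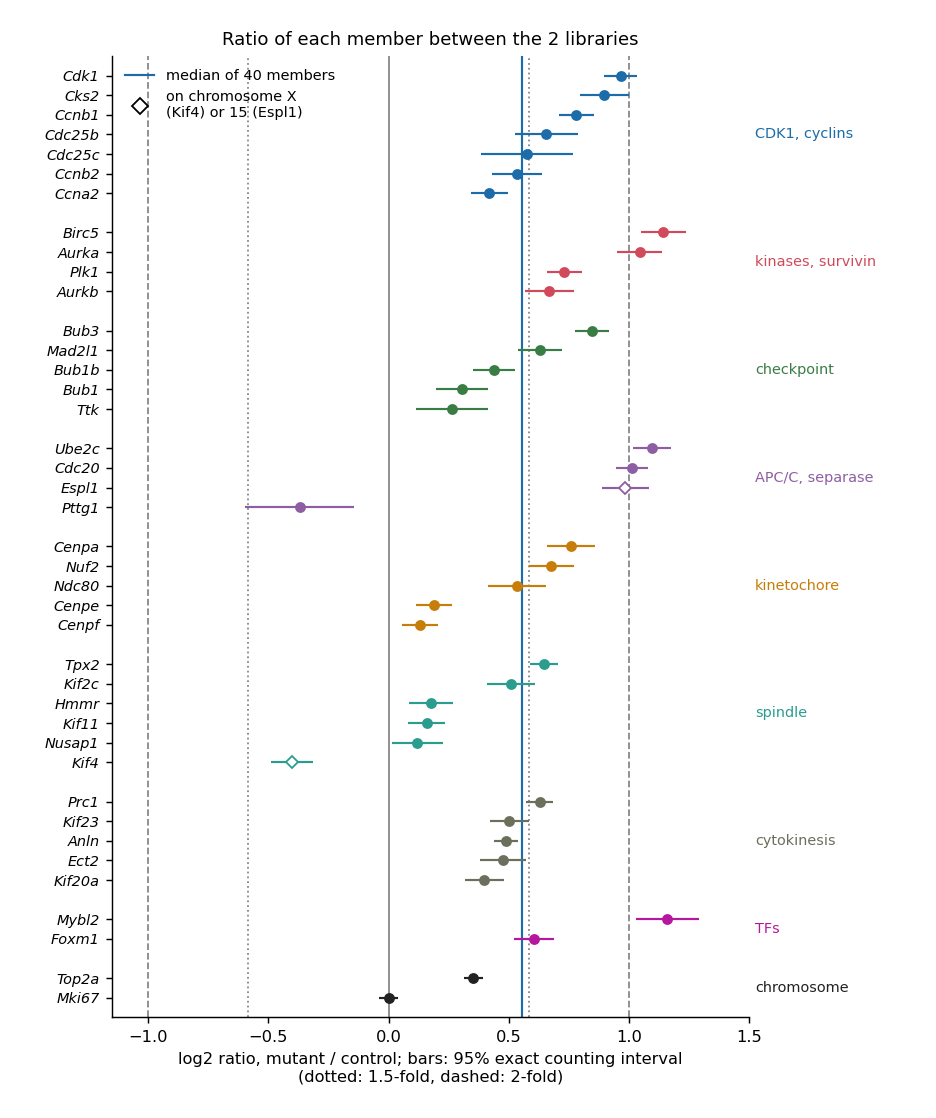
Log2 ratio of mutant over control for each member, with its 95% exact counting interval; dotted lines mark 1.5-fold, dashed lines 2-fold and the blue line the members' median of 0.56. Intervals of Birc5, Ube2c and Mybl2 lie wholly beyond 2-fold, and open diamonds mark Kif4 on chromosome X and Espl1 on chromosome 15.

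The promoters of several members hold letters through which this gene class is known to be controlled. A pair of short elements recur in G2/M promoters, the cell cycle genes homology region (CHR), contacted by the MuvB subunit LIN54, and the CCAAT box, bound by NF-Y. In the stretches below, each the 110 bases before the annotated start (RefSeq, GRCm38.p6, written 5′ to 3′ on the gene's strand), capitals mark CHR letters (TTTGAA or TTTAAA) and CCAAT letters on either strand. They were chosen to show B-type cyclins and genes of APC/C activation and sister separation with ratios near 2. A pair of members with neither element was added: Mybl2, the highest ratio, and Pttg1, one of the 2 ratios below 1.
Ccnb1 (chr13:100786487-100786596, minus strand): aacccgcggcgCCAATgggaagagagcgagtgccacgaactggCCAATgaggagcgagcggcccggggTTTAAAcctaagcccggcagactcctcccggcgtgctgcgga
Ccnb2 (chr9:70421555-70421664, minus strand): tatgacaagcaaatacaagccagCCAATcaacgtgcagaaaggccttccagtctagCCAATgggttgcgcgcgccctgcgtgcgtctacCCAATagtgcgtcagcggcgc
Cdc20 (chr4:118437344-118437453, minus strand): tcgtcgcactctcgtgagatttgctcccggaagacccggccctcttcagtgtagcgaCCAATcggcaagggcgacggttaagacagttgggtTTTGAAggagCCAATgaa
Ube2c (chr2:164769819-164769928, plus strand): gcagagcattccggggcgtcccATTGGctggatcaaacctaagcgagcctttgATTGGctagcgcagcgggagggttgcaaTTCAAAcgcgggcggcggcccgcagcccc
Espl1 (chr15:102296183-102296292, plus strand): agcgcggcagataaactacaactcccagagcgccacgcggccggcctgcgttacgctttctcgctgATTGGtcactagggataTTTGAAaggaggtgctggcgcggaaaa
Mybl2 (chr2:163054525-163054634, plus strand): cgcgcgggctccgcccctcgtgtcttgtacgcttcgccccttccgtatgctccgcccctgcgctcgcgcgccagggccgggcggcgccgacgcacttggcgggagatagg
Pttg1 (chr11:43425982-43426091, minus strand): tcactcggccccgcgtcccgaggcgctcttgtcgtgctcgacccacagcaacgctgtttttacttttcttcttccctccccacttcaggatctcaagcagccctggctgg
Ccnb2 carries 3 CCAAT boxes here, and its nearest CHR letters lie past the start, at base 4. Ube2c carries both elements in the reverse orientation, as ATTGG and TTCAAA.

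RefSeq windows from 250 bases before to 50 after the start were matched for 34 of the 40 members, with no entry for Aurkb, Ccna2, Cdc25c, Foxm1, Kif20a and Tpx2. CHR letters were found in 26 of the 34 (76.5%), against 27.6% of 32851 promoters of the same length and 21.6% of the 6348 genes with as many counts as the members. CCAAT was found in 25 (73.5%), against 37.4% of all promoters and 42.9% of those well-counted genes. Both together were found in 22 members (64.7%), against 10.7% and 8.96%. The CHR letters lay within 50 bases of the start in 23 members (67.6%), against 8.28% of all promoters and 5.88% of well-counted genes. A pair of CCAAT boxes in the same orientation 31 to 33 bases apart was found in 6 members (17.6%), against 0.794% of all promoters and 1.84% of well-counted genes. The last 2 features were chosen after the windows had been seen. E2F-like letters (TTCCCGC or TTGGCGC or TTCGCGC) were found in 5 members (14.7%), against 8.07% of all promoters and 18.4% of well-counted genes. GC boxes (GGGCGG) were found in 28 (82.4%), against 35.7% and 75.1%. An E2F-like match on the reverse strand can overlap a CCAAT box, as GCGCCAA does. The letters TTGGCGG, present in the Mybl2 stretch, were not among those searched. Members and well-counted genes were scored over all of their windows, and all promoters window by window. Scored by gene, the shares among 27025 genes were 30.6% for CHR, 41.1% for CCAAT, 9.20% for E2F-like letters and 38.2% for GC boxes.

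No single direction joined the letters to the ratios. The median log2 ratio was 0.52 for the 26 members with CHR letters and 0.64 for the 8 without them, which were Bub1, Cdc25b, Cks2, Mad2l1, Mybl2, Nuf2, Nusap1 and Pttg1. These 8 hold both the highest ratio of all members, that of Mybl2, and one of the 2 below 1. Members with CCAAT letters had a median of 0.54 and those without 0.53. For the CCAAT pair it was 0.87 in the 6 members with it and 0.51 without, for GC boxes 0.58 with and 0.47 without, and for E2F-like letters 0.48 with and 0.54 without. The E2F-like split depends on the letters searched. Mybl2, with TTGGCGG, was placed among those without, and Ccnb1 and Ect2 among those with, through letters that overlap a CCAAT box. A match of letters is a description and not a binding site.

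Among the 7 genes of CDK1, its cyclins and its activating phosphatases, all had ratios above 1, and Cdk1, Cks2 and Ccnb1 rose beyond 1.5-fold. Cdk1, the kinase that starts mitosis, had 2914 control and 4283 mutant counts (126 and 246 CPM), a ratio of 1.955 (1.86 to 2.05). Cks2, the small subunit that helps CDK1 bind phosphorylated substrates, had 1344 control and 1883 mutant counts (58.1 and 108 CPM), a ratio of 1.86 (1.74 to 2.0). Ccnb1, the main mitotic cyclin, had 2717 control and 3509 mutant counts (117 and 202 CPM), a ratio of 1.72 (1.63 to 1.81). The other cyclins were closer to the control: Ccnb2, the Golgi-associated B-type cyclin, had 1442 control and 1572 mutant counts, a ratio of 1.45 (1.35 to 1.56), and Ccna2, which also acts in S phase, had 2842 control and 2859 mutant counts, a ratio of 1.34 (1.27 to 1.41). The intervals of Ccna2 and Ccnb1 did not overlap. Cdc25b and Cdc25c remove the inhibitory phosphates from CDK1. Cdc25b had 864 control and 1024 mutant counts, a ratio of 1.58 (1.44 to 1.73), and Cdc25c, the less counted of both, had 424 control and 475 mutant counts, a ratio of 1.49 (1.30 to 1.70). A processed copy of cyclin B2, Ccnb2-ps, was counted 86 and 20 times, so reads could have been split between it and Ccnb2.

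The mitotic kinases and survivin had some of the highest ratios, with a median log2 ratio of 0.89 over 4 genes. Birc5 encodes survivin, which takes the chromosomal passenger complex to centromeres and the midzone, and it had 1475 control and 2450 mutant counts (63.8 and 141 CPM). Its ratio was 2.21 (2.07 to 2.36). Aurka, the kinase of centrosomes and spindle poles, had 1514 control and 2351 mutant counts (65.5 and 135 CPM), a ratio of 2.07 (1.94 to 2.20). Plk1, which acts at centrosomes, kinetochores and the midbody, had 2653 control and 3313 mutant counts (115 and 191 CPM), a ratio of 1.66 (1.58 to 1.75). Aurkb, the catalytic subunit of the passenger complex, had 1429 control and 1708 mutant counts, a ratio of 1.59 (1.48 to 1.71), and its interval began just below 1.5. The intervals of survivin and of the kinase it positions did not overlap.

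Genes of the spindle assembly checkpoint, which delays anaphase until every kinetochore is attached, spread over ratios from 1.2 to 1.8. Bub3, a WD40 protein that brings BUB1 and BUBR1 to kinetochores, was the one that rose beyond 1.5-fold, with 2731 control and 3692 mutant counts (118 and 212 CPM), a ratio of 1.798 (1.71 to 1.89). Mad2l1 encodes MAD2, the direct inhibitor of CDC20, and had 1754 control and 2041 mutant counts, a ratio of 1.55 (1.45 to 1.65). Bub1b encodes BUBR1, which binds CDC20 together with MAD2, and had 2101 control and 2143 mutant counts, a ratio of 1.36 (1.28 to 1.44). The kinases Bub1 and Ttk (MPS1), which start checkpoint signalling, were nearest to the control. Bub1 had 1400 control and 1301 mutant counts, a ratio of 1.24 (1.15 to 1.33), and Ttk had 752 control and 679 mutant counts, a ratio of 1.201 (1.08 to 1.33). This order changed once length and GC trends were removed. Mad2l1, at 2.22, then lay above Bub3, at 1.76, and Bub1, at 1.49, above Bub1b, at 1.38. Ttk stayed the lowest, at 1.35.

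Genes of APC/C activation and sister separation held the widest contrast. Ube2c, the ubiquitin-conjugating enzyme that starts chains on APC/C substrates, had 2116 control and 3401 mutant counts (91.5 and 196 CPM), a ratio of 2.14 (2.02 to 2.26). Cdc20, the APC/C activator of metaphase, had 3024 control and 4590 mutant counts (131 and 264 CPM), a ratio of 2.02 (1.93 to 2.11). Espl1 encodes separase, the protease that opens cohesin, and had 1429 control and 2126 mutant counts (61.8 and 122 CPM), a ratio of 1.98 (1.85 to 2.12). Pttg1 encodes securin, the inhibitor of separase that the APC/C destroys. It was the least counted member, with 440 control and 256 mutant counts (19.0 and 14.7 CPM), a ratio of 0.774 (0.661 to 0.905). Thus 3 of these 4 genes were near 2 and 1 was below 1. Pttg1 was called lower at neither threshold, and its interval lay wholly below 1.

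Centromere and kinetochore genes fell into a higher and a lower part, but not once length and GC trends were removed. Cenpa, the histone H3 variant that marks centromeres, rose beyond 1.5-fold, with 1445 control and 1838 mutant counts (62.5 and 106 CPM) and a ratio of 1.69 (1.58 to 1.81). Nuf2 and Ndc80, which form the microtubule-binding rod of the kinetochore, had 1660 control and 1997 mutant counts and 1056 control and 1150 mutant counts. Their ratios were 1.60 (1.499 to 1.71) for Nuf2 and 1.45 (1.33 to 1.58) for Ndc80. Cenpe, a kinesin that moves chromosomes to the spindle equator, had 3086 control and 2645 mutant counts, a ratio of 1.14 (1.08 to 1.201). Cenpf, a large protein of the outer kinetochore, had 3214 control and 2646 mutant counts, a ratio of 1.10 (1.04 to 1.15). Both of these long genes had fewer raw counts in the mutant library, and their ratios exceeded 1 after scaling for its smaller total.

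Spindle motors and microtubule-binding proteins had the lowest median of the groups with more than 2 genes, log2 0.17. Tpx2, which activates Aurora A on spindle microtubules, rose beyond 1.5-fold, with 4570 control and 5381 mutant counts (198 and 309 CPM) and a ratio of 1.57 (1.51 to 1.63). Kif2c (MCAK), a kinesin that takes microtubules apart at centromeres, had 1571 control and 1681 mutant counts, a ratio of 1.42 (1.33 to 1.53). Hmmr, Kif11 and Nusap1 were all near the control. Kif11 (EG5), the motor that pushes spindle poles apart, had 3070 control and 2577 mutant counts, a ratio of 1.12 (1.06 to 1.18). Hmmr, a spindle-pole adaptor, had a ratio of 1.13 (1.06 to 1.204), and Nusap1, which bundles microtubules near chromosomes, had 1.09 (1.009 to 1.17). Kif4, the chromokinesin that works with PRC1 at the midzone, went the other way, with 2873 control and 1634 mutant counts (124 and 93.97 CPM) and a ratio of 0.757 (0.712 to 0.804). Its interval lay below 1 but not beyond 1.5-fold, so Kif4 was not called.

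The 5 central spindle and cytokinesis genes lay close together, with ratios from 1.32 to 1.55, and none was called at either threshold. Prc1, which cross-links antiparallel microtubules, had 4554 control and 5294 mutant counts (197 and 304 CPM), a ratio of 1.55 (1.49 to 1.61). Anln (anillin), the scaffold of the contractile ring, had 6575 control and 6941 mutant counts, a ratio of 1.40 (1.36 to 1.45). Kif23 and Ect2 act in turn: Kif23 (MKLP1) is part of centralspindlin, which recruits ECT2, the exchange factor that activates RhoA. Kif23 had 2309 control and 2461 mutant counts, a ratio of 1.42 (1.34 to 1.501). Ect2 had 1687 control and 1764 mutant counts, a ratio of 1.39 (1.30 to 1.49). Kif20a (MKLP2), which carries the passenger complex to the midzone, had 2472 control and 2449 mutant counts, a ratio of 1.32 (1.25 to 1.39).

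Both transcription factors of the G2/M wave had ratios above 1.5. Mybl2 encodes B-MYB, which binds the MuvB core in S phase, and it had the highest ratio of all members. It was counted at 747 control and 1256 mutant counts (32.3 and 72.2 CPM), a ratio of 2.24 (2.04 to 2.45). Foxm1, the forkhead factor that joins later, had 2139 control and 2448 mutant counts (92.5 and 141 CPM), a ratio of 1.52 (1.44 to 1.61), and was not called at 1.5-fold.

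The widely used proliferation markers Top2a and Mki67 both lay below the members' median ratio, but Top2a did not once length and GC trends were removed. Top2a, the topoisomerase that untangles sister chromatids, had 10134 control and 9730 mutant counts (438 and 559.6 CPM), a ratio of 1.28 (1.24 to 1.31). Mki67 (Ki-67), which coats mitotic chromosomes, had 11194 control and 8416 mutant counts (484 and 484 CPM), a ratio of 1.0 (0.972 to 1.03). These were the most abundant members by count, and Mki67 was the only member whose interval held 1 under TMM scaling. Without them the scaled sum of the other 38 members rose 1.51-fold. Mki67 fell on the other side of 1 under total counts, upper-quartile scaling and totals without the 50 most abundant genes, so no direction is given for it. With length and GC trends removed, the ratio of Mki67 was 1.28 and that of Top2a 1.52. Top2a then had a log2 ratio of 0.60, against a members' median of 0.59.

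The spread between members was larger than counting error. The SD of the log2 ratios was 0.37, and the median half-width of their intervals was 0.09. Intervals of 16 members lay wholly above the members' median ratio, those of 15 wholly below it, and 9 held it. Read per kilobase of transcript, Ube2c, Cks2, Top2a, Cdc20 and Birc5 had the highest levels in the control library and Mybl2 the lowest. Ube2c had 2116 control and 3401 mutant counts, equal to 94.6 and 202 CPM per kilobase, and Mybl2 had 8.85 and 19.8 CPM per kilobase. The order of the levels was largely shared, with Pearson's r 0.945 and Spearman's rho 0.951 between the 2 libraries over 40 genes, which share the same transcript lengths. Some neighbours in that order lay side by side: Cks2 and Top2a had 84.0 and 83.9 CPM per kilobase in the control.

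Partner genes were compared by the ratio of their ratios, which does not depend on how the libraries are scaled. The 20 pairs were chosen by known partnership after the members' ratios had been seen, so they describe and do not test. For 6 pairs the 95% interval (Woolf, counting error only) held 1. These were Cks2 with Cdk1 (0.953, 0.876 to 1.04), Cdc25c with Cdc25b (0.945, 0.806 to 1.11), Ube2c with Cdc20 (1.06, 0.986 to 1.14), Nuf2 with Ndc80 (1.10, 0.994 to 1.23), Cenpf with Cenpe (0.961, 0.893 to 1.03) and Ect2 with Kif23 (0.981, 0.899 to 1.07). Those partners kept their proportion within counting error of these libraries, with no correction for length, GC content or chromosome. The other 14 pairs did not. For each count of separase there were 0.308 counts of securin among control reads and 0.120 among mutant reads, a ratio of 0.391 (0.331 to 0.463). For each count of Prc1 there were 0.631 and 0.309 counts of Kif4, a ratio of 0.489 (0.455 to 0.526). For each count of Foxm1 there were 0.349 and 0.513 counts of Mybl2, a ratio of 1.47 (1.32 to 1.64). Relative to Cdc20, its inhibitors gave 0.672 (0.623 to 0.725) for Bub1b and 0.767 (0.709 to 0.829) for Mad2l1. Birc5 relative to Aurkb gave 1.39 (1.26 to 1.53). Of these 14 pairs, 12 kept their direction both with length and GC trends removed and with each gene set against its chromosome's median, alternatives chosen for the pairs after seeing the data. Mad2l1 relative to Cdc20 turned to 1.29 with the trends removed. Kif4 relative to Prc1 turned to 1.18 against the chromosome medians, where securin relative to separase was 0.547.

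Kif4 lies on chromosome X and Espl1 on chromosome 15, and these 2 chromosomes stood apart from the rest. This was noticed after the data had been seen. Among well-counted genes other than the members, the 281 on X had a median log2 ratio of -1.03, with 93.2% of ratios below 1. The 332 on chromosome 15 had a median of 0.62, with 80.7% above 1. On the other 18 chromosomes the medians ran from -0.02 to 0.28. Kif4, at log2 -0.40, was thus 0.63 above the median of its chromosome, and Espl1, at 0.98, was 0.36 above that of its own. Measured against their own chromosomes, 37 of the 40 members lay above the median, and Kif11, Mki67 and Pttg1 lay below it. The median over the members was then 0.48, against 0.56. Xist, the X-linked RNA that coats the inactive X, had 21878 control and 9051 mutant counts. The part of the whole-chromosome differences in the ratios of Kif4 and Espl1 was not tested.

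**Figure D3:**
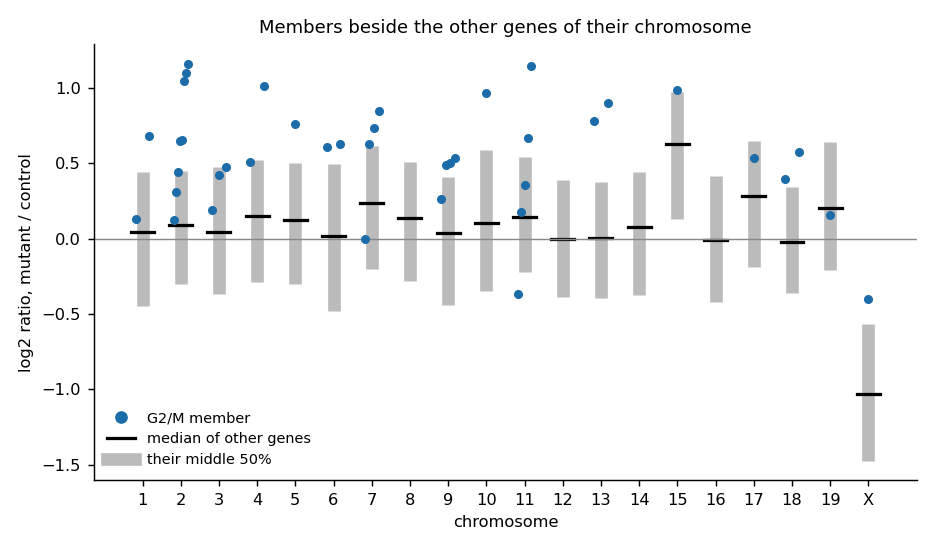
Log2 ratio of mutant over control by chromosome for well-counted genes other than the members, shown as a black median and a grey bar for the middle 50%, with the members as blue points on their chromosomes. Chromosome X lies low, with a median of -1.03, and chromosome 15 high, with a median of 0.62, while the other 18 medians lie between -0.02 and 0.28.

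The ratios of the members also followed transcript length and GC content. Over the 40 members, the log2 ratio had Pearson's r -0.375 and Spearman's rho -0.471 with transcript length, and 0.508 and 0.561 with GC content. These are descriptions across genes of the same 2 libraries. Well-counted genes other than the members showed the same directions, with r -0.253 for length and 0.164 for GC content over 7918 genes. The 10 members under 2 kb, among them Ube2c, Birc5 and Cks2, had a median log2 ratio of 0.83, against 0.39 for other well-counted genes of that length. The 17 members of 2 to 4 kb had 0.51 against 0.16. The 13 members of at least 4 kb, among them Mki67, Cenpf and Cenpe, had 0.48 against -0.14. In each length class the members' median was above that of the other genes. With both trends removed, the members' median was 0.59, 1 member was called beyond 2-fold (Mad2l1, whose annotated transcript is 7.56 kb long) in place of Birc5, Mybl2 and Ube2c, and 16 were called beyond 1.5-fold. The part of length and GC content in the order of the members was not otherwise tested.

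**Figure D4:**
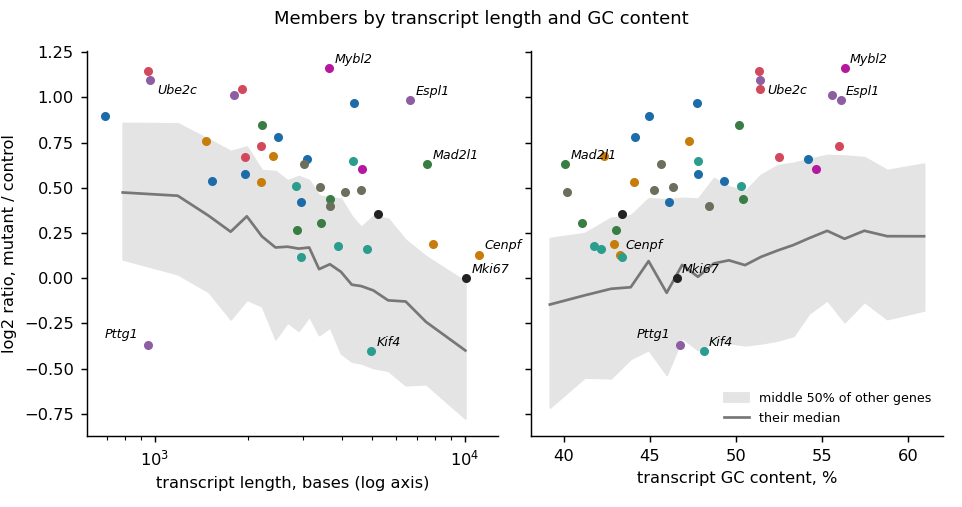
Log2 ratio of each member against the length of its principal transcript in bases (log axis) and against its GC content in percent, with points coloured by role as in the plot of ratios and the median and middle 50% of other well-counted genes in grey. The short Birc5 and Ube2c lie high, and the long Mki67 and Cenpf lie near 0. Exceptions are the short Pttg1, which lies below 0, and the long Espl1 and Mad2l1, which lie high.

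Each of the 7 wider lists of mitotic genes had a lower median than the 40. With length and GC trends removed this no longer held for the other kinases and phosphatases, at 0.64 against 0.59 for the members. Over 161 measured genes of 7 lists, the median log2 ratio was 0.31. Beyond 2-fold, 8 genes were called higher and 5 lower, and beyond 1.5-fold 25 higher and 9 lower. Of all measured genes, 6.98% were higher and 8.29% lower beyond 2-fold, and 15.7% and 15.6% beyond 1.5-fold. None of the counts over the 7 lists together exceeded those shares. The 33 other kinetochore and centromere genes had a median of 0.35, and 7 rose and 1 fell beyond 1.5-fold. The 19 APC/C subunits and partners had a median of 0.40, with 2 higher and 0 lower beyond 1.5-fold. The median of that list lay below the ratios of the activator Cdc20 and the enzyme Ube2c. The 22 other kinases, phosphatases and their regulators had a median of 0.50. Of these, Rcc1, the exchange factor that makes RanGTP at chromosomes, rose from 886 to 1896 counts, a ratio of 2.85 (2.63 to 3.09). Rcc2, a regulator of the passenger complex, had a ratio of 2.24 (2.14 to 2.34), and Cks1b, the paralog of Cks2, had 2.24 (2.09 to 2.41).

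The 37 other spindle, centrosome and cytokinesis genes had a median of 0.36, with Troap and Psrc1 at its ends. Troap, a microtubule-associated protein encoded on chromosome 15, rose from 606 to 1285 counts, a ratio of 2.82 (2.56 to 3.11). Psrc1, a spindle protein, fell from 1611 to 394 counts, 3.07-fold lower (2.75 to 3.44). The 19 condensin and cohesin genes had a median of 0.12, and none was higher beyond 2-fold. Stag2, the cohesin subunit encoded on X, fell from 4681 to 1201 counts, 2.93-fold lower (2.75 to 3.12).

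Genes of other cell cycle phases were read beside them. The 49 genes of DNA replication and nucleotide supply had a median log2 ratio of 0.84, with 8 higher beyond 2-fold and 33 higher beyond 1.5-fold, and 0 lower at either threshold. Of all measured genes, 6.98% were higher beyond 2-fold and 15.7% beyond 1.5-fold. Cdt1, the origin licensing factor, rose from 444 to 1260 counts, a ratio of 3.77 (3.39 to 4.22). Rrm2, a subunit of ribonucleotide reductase, had a ratio of 2.74 (2.64 to 2.83), and Mcm5, a subunit of the replicative helicase, had 2.57 (2.44 to 2.70). Pola1, encoded on X, was the 1 replication gene with a ratio below 1. The 24 G1 cyclins, CDKs and E2F factors had a median of 0.30, with 0 higher and 2 lower beyond 2-fold. Those were Cdkn1c, the p57 inhibitor, which fell from 97 to 15 counts, and Ccnd2, cyclin D2, which fell from 17273 to 5660. The 2 of 24 were close to the 8.29% of all measured genes called lower beyond 2-fold. The members' median thus lay between those of the replication and the G1 list. This difference between lists was not tested.

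**Figure D5:**
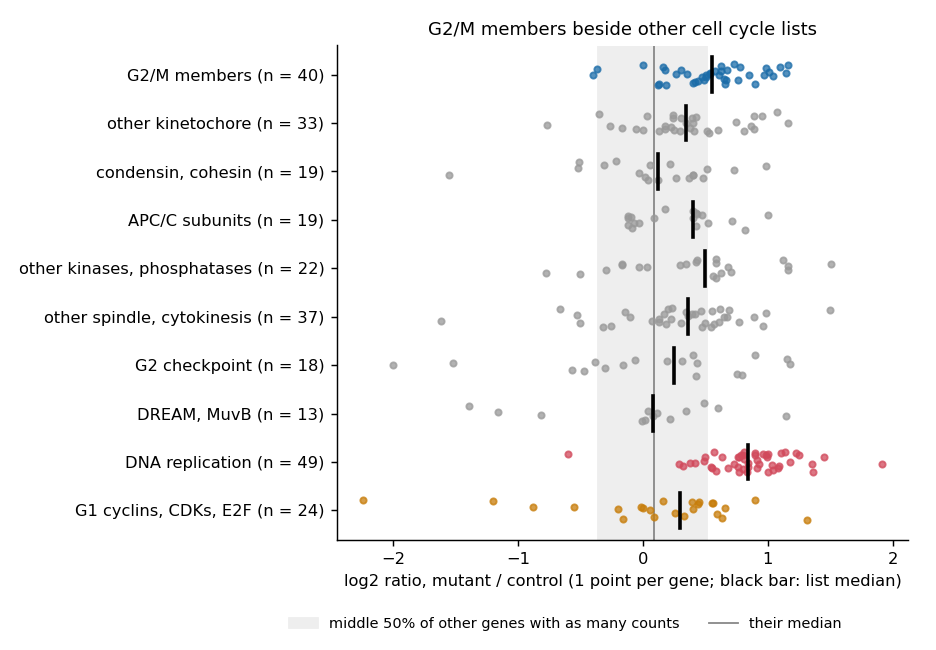
Log2 ratio of every measured gene in the G2/M members, the 7 wider mitotic lists, the replication list and the G1 list, 1 point per gene, with a black bar at each median and the middle 50% of other well-counted genes shaded. The replication list has the highest median, 0.84, followed by the G2/M members at 0.56.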

How the data were processed

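Poly(A)-enriched RNA from sorted MSPC was sequenced, with 1 library per genotype. The deposited values are raw counts per Ensembl gene, made by the authors. The submitters' processing notes name CASAVA, TopHat and edgeR and the mouse build mm9, while the counter, the annotation and whether strand was used are not given in the sources used, so overlapping or antisense genes may share reads. The series' design text mentions 2 replicates, and the table holds 1 column per genotype.

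TMM factors came from edgeR 4.0.16 (1.04 for the control and 0.965 for the mutant). Ratios are of scaled counts, with exact intervals from SciPy 1.17.1, and log2 ratios add 0.5 counts per library. Genes under 20 counts over both libraries were left out. Symbols, chromosomes, transcript length and GC content came from GENCODE M21 (34490 identifiers with a symbol), promoters from RefSeq. Interval coverage and calls were tested on simulated data with counting noise only, which hold no spread between mice or preparations. The alternatives were 4 other scalings, other count minimums, a 99% interval, removal of length and GC trends, and centring by chromosome. All members are named, and of each other list at most 3 genes per direction called beyond 2-fold. Members, lists and tests were chosen with earlier results of these data known.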

Additional observations from a re-analysis of the deposited data

How the results depend on the processing

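No paired analysis was possible because there was 1 library per genotype, and for the same reason no library could be left out. The count of members higher beyond 2-fold was 3 with TMM, 3 with DESeq2 size factors and 2 with upper-quartile factors. It was 0 when total counts were used, 0 when totals excluded the top 50 genes by abundance, and 0 with ratios divided by the chromosome median, which was chosen after seeing the data. It was 1 with length and GC trends removed and 1 with a 99% interval. The count beyond 1.5-fold, 13 with TMM, was 8 after division by the chromosome median and 9 to 16 under the other alternatives. No member was called lower under any alternative run. The members' median log2 ratio, 0.56 with TMM, was 0.43 with those genes excluded. That scaling and total counts shifted the median of all measured genes to -0.12 and -0.10, from 0.01. The summed share ratio, 1.43 with TMM, was 1.33 with total counts, 1.40 with upper-quartile factors, 1.31 with them excluded and 1.44 without Top2a. Mki67, Nusap1, Kif11 and Kif4 crossed a ratio of 1 under at least 1 alternative. The cause of these changes was not tested. A search of the proteins for a degradation motif was not run. Every member had at least 696 counts, but counting error still decided calls: Aurka and Cdc20 had ratios above 2 with intervals that held 2. The spread between mice is unknown without replicates.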

Other observations

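The regulators that act around the G2/M genes did not move as 1 group. Of the 20 G2 checkpoint and CDK1 inhibition genes, 18 were measured, with a median log2 ratio of 0.25, and beyond 2-fold 2 rose and 2 fell. Cdkn1a and Cdc25a belong to this list and to the G1 list. Of all measured genes, 6.98% were called higher and 8.29% lower beyond 2-fold. Gadd45g and Gadd45b, stress-induced proteins that can inhibit CDK1, rose from 2715 to 4543 counts, a ratio of 2.23 (2.12 to 2.34), and from 962 to 1636 counts, a ratio of 2.26 (2.09 to 2.45). Ccng1 and Ccng2, atypical cyclins, fell from 9482 to 2489 counts, 2.86-fold lower (2.74 to 2.99), and from 1261 to 236 counts, 4.02-fold lower (3.49 to 4.64). The 13 genes of the DREAM and MuvB list, which also holds Dyrk1a and Mybl1, had a median of 0.08. Beyond 2-fold 1 was higher and 1 lower, and beyond 1.5-fold 1 was higher and 3 lower. Over all measured genes, 15.7% were higher and 15.6% lower beyond 1.5-fold. E2f4, a DREAM transcription factor, rose from 810 to 1350 counts, a ratio of 2.22 (2.03 to 2.42). Rbl2 (p130), the pocket protein of DREAM in resting cells, fell from 1067 to 305 counts, 2.63-fold lower (2.31 to 2.997).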
